A study of Mus musculus with 73 samples.

Results

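The 9 genes described here encode secreted Wnt ligands (*Wnt4*, *Wnt5a*, *Wnt2b*, *Wnt3*, *Wnt6* and *Wnt9b*) and R-spondins (*Rspo1*, *Rspo2* and *Rspo3*) of the mouse jejunum. They were taken by name, where the stromal table lists 20882 genes, and with earlier results of these data known. *Rspo2* has no row in the stromal table and *Wnt9b* has none in the single-cell table, so 8 of the 9 genes were followed in each of these data sets and all 9 in the epithelium. Stroma of the crypt (6 sections from 3 mice), villus bottom (8 sections from 5 mice), villus center (7 sections from 5 mice) and villus tip (8 sections from 5 mice) was collected by laser capture microdissection (LCM) from C57BL/6 males aged 3 months and sequenced with a full-length low-input protocol. Each section pooled stromal fragments of several villi or crypts. Single jejunal cells of the same strain and age were sorted into plates, mostly on the surface protein PDGFRa, from 8 mice through 12 gates, some of them set to collect touching cell pairs. Bulk jejunal epithelium came from Lgr5(GFP-ires-DTR/+) mice aged 4 months, which carry the diphtheria toxin receptor at the *Lgr5* locus, 48 h after diphtheria toxin (DT) or after mock treatment, with 4 mice per group. The receptor sits on every *Lgr5* expressing cell, in the crypt base epithelium as well as in the villus tip stroma, so DT acts on both, and the mock mice carry the same allele. By the study's account the crypt cells had returned when the epithelium was collected and those of the villus tip had not.

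Wnt proteins are lipid-modified in the secreting cell, carried to the surface by Wls and bound by Frizzled receptors together with Lrp5 or Lrp6, which stabilizes beta-catenin in the receiving cell, or with Ror receptors, which act without beta-catenin. R-spondins bind Lgr4, Lgr5 and Lgr6 and remove the ubiquitin ligases Rnf43 and Znrf3, which would otherwise clear Frizzled from the membrane. In the small intestine canonical Wnt and R-spondin signals from stroma and Paneth cells maintain the crypt stem cells, whereas *Wnt4* and *Wnt5a* are usually counted among the non-canonical ligands.

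On GRCm38 the Wnt genes lie on chromosome 4 (*Wnt4*, 137277489 to 137299726), 14 (*Wnt5a*, 28504750 to 28527448), 3 (*Wnt2b*, 104945272 to 104961921), 1 (*Wnt6*, 74771892 to 74785322) and 11. Chromosome 11 holds *Wnt9b* (103727364 to 103749821) and *Wnt3* (103774150 to 103817957) as neighbors. *Rspo1* lies on chromosome 4 (124986430 to 125009099), *Rspo2* on 15 (43020794 to 43170826) and *Rspo3* on 10 (29452416 to 29535867). The study located *Wnt5a*, *Wnt2b* and *Rspo3* transcripts in tissue with sets of 20-base smFISH probes, which bind the mRNA and are therefore written as its reverse complement. By the study's account stromal RNA shifted along the axis from *Wnt2b* to *Wnt5a*, with *Wnt5a* at the villus tip. It saw *Rspo3* on extensions of villus tip stromal cells. Those images were not analysed here. A probe of each set that falls inside the coding sequence is shown to place the detected RNA in the gene.
Wnt5a probe, coding part of exon 2, chr14:28511839-28511858, gene on the plus strand: caaagccactcccgggctta
Wnt2b probe, coding part of exon 2, chr3:104954801-104954820, gene on the minus strand: ggatgttgtcacagatcact
Rspo3 probe, coding part of exon 1, chr10:29535261-29535280, gene on the minus strand: ttttggctgccaatgtattc
All 47 *Wnt5a* probes matched the coding sequence of the transcript used. For *Wnt2b*, 40 of 48 probes matched, 10 in the coding sequence and 30 in the 3′ UTR, and for *Rspo3* all 48 matched, with 15 in the coding sequence and 26 in the 3′ UTR. By contrast, the unique molecular identifier (UMI) counts of the single cells and the epithelium are 3′ tags, and the LCM values were estimated over coding transcripts.

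LCM values are TPM (transcripts per 1e6 transcripts) rescaled to ppm (parts per 1e6) after highly expressed enterocyte genes were removed. They are corrected for transcript length, so levels may be compared between genes, but they keep no read number and the depth is unknown. Epithelial RNA remained in every zone. The summed TPM of 6 epithelial markers was 1182 to 17848 per mouse and zone, against 26.3 to 1104 for the 6 mesenchymal markers. Whether a lower ppm reflects fewer cells of a type or less RNA per cell cannot be told apart in such bulk samples. In the single cells 325 of 2347 (13.8%) had at least 2 of *Pdgfra*, *Dcn*, *Lum*, *Col1a1*, *Col1a2* and *Col3a1* and are called mesenchymal, and the other 2022 were mostly epithelial by their markers. One plate of mouse C held 168 of the mesenchymal cells (51.7%), and 79 came from gates labelled as doublets. Of the 380 well barcodes among these cells, 377 occurred on more than 1 plate, as they name positions on a plate rather than cells.

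*Wnt4*, a non-canonical ligand, was the most abundant of the 8 ligands in the stroma of every zone by mean ppm and the only member above 0 in 29 of 29 sections. In the crypt stroma mice 1 to 3 had 40.5, 243 and 53.5 ppm. At the villus bottom mice 1 to 5 had 30.0, 142, 68.5, 292 and 190 ppm. In the villus center they had 12.04, 115, 163, 348 and 89.7 ppm, and at the villus tip 28.5, 134, 206, 588 and 282 ppm. The zones overlapped almost entirely. Mouse 1 was lowest in all 4 zones and mouse 4 highest in the 3 villus zones in which it was sampled. The villus tip held the highest *Wnt4* level of mice 3, 4 and 5, and the crypt that of mice 1 and 2. Of the variation of log2 *Wnt4* values, 7.36% lay between zones, 79.0% between mice and 13.7% was residual. Sections of the same mouse and zone differed by a median of 0.65 on the log2 scale over 11 pairs, against 1.08 for 697 genes of like mean level. Paired sections thus differed less in *Wnt4* than the median gene at its level did. Mouse 1 also had the highest summed epithelial marker level in every zone (11511 to 17848 TPM) and the lowest endothelial sum in each villus zone (279 to 578 TPM). Mouse 4 had the lowest epithelial sum at the villus tip (1182 TPM). The endothelial sum was mostly *Pecam1*, with medians at the tip of 1040 TPM for this gene and 1067 TPM for the sum. The part of these marker levels in the *Wnt4* level was not tested.

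*Wnt5a*, the main ligand of Ror receptors, had its highest mean in the crypt stroma and its lowest at the villus tip. The study's smFISH instead placed *Wnt5a* in the villus tip stroma, and images and bulk ppm are unlike measures. Mice 1 to 3 had 7.78, 30.7 and 4.74 ppm in the crypt. At the villus bottom mice 1 to 5 had 1.32, 8.84, 11.5, 1.80 and 1.91 ppm. The villus center had 18.4, 7.12, 4.47, 3.94 and 13.5 ppm and the villus tip 1.33, 2.87, 5.29, 1.97 and 2.74 ppm. At the villus tip 4 of the 5 values thus lay below all 3 crypt values, with mouse 3 the exception. Crypt *Wnt5a* averaged 14.4 ± 14.2 ppm (SD over 3 mice). From villus bottom to tip the 3 zone means were 5.08 ± 4.76, 9.50 ± 6.28 and 2.84 ± 1.51 ppm (SD over 5 mice). Single sections decided the higher *Wnt5a* values. The crypt value of mouse 2 averaged 3.46 and 57.9 ppm, and the villus center value of mouse 1 averaged 33.9 and 2.91 ppm. Over 11 pairs of sections the median *Wnt5a* difference was 1.99 on the log2 scale, against 1.57 for 2789 genes of like mean level. In mouse 2 the crypt section with more *Wnt5a* had a higher summed mesenchymal marker level, 369 against 122 TPM. *Dcn* was at 202 against 14.2 TPM, whereas *Lum* (16.7 against 19.9 TPM) and *Col1a1* (30.4 against 39.0 TPM) were lower in that section. The median level of the mesenchymal markers was also lowest at the villus tip. Their summed level per mouse had a median of 246 TPM in the crypt, 54.7 at the villus tip, 82.3 at its bottom and 494 in its center, with overlapping ranges of 91.2 to 355 TPM in the crypt and 26.3 to 186 TPM at the tip. The part of mesenchymal RNA content in the *Wnt5a* level was not tested.

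**Figure D1:**
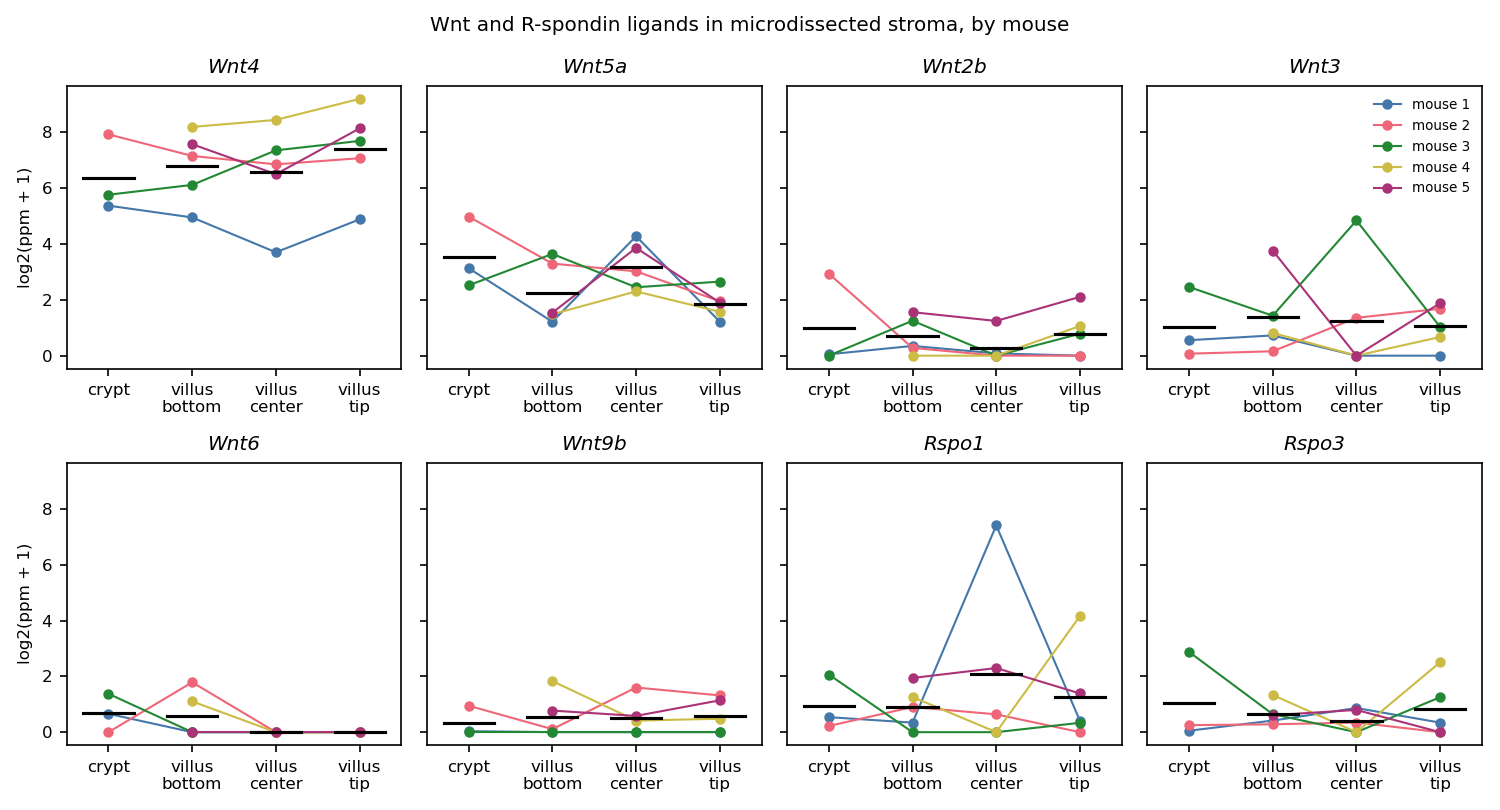
Level of 8 ligands in laser-captured stroma as log2(ppm + 1) on the vertical axis, by zone on the horizontal axis; each colored point is 1 mouse (mean of its 1 or 2 sections), lines join a mouse, and the black bar is the mean of the log2 values. *Wnt4* sat above the other ligands, with mouse 1 lowest in every zone, and *Rspo1* stood out in the villus center of mouse 1 at 169 ppm.

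The ligands counted as canonical were scarce in the stroma. *Wnt3*, in the small intestine known as the Paneth cell ligand, was above 0 in 17 of 29 sections. Its crypt values were 0.469, 0.0508 and 4.51 ppm, and the highest values were 27.7 ppm in the villus center of mouse 3 and 12.6 ppm at the villus bottom of mouse 5. All other *Wnt3* values of a mouse and zone were at most 4.51 ppm. *Wnt6*, an epithelial Wnt in many tissues, was above 0 in 4 of 29 sections, 2 in the crypt and 2 at the villus bottom. It was listed at 0 in all 5 mice in both upper villus zones, center and tip. *Wnt9b* reached at most 2.56 ppm (villus bottom, mouse 4) and was above 0 in 11 of 29 sections. *Wnt2b*, a canonical ligand of the crypt stroma, was above 0 in 12 sections and reached 6.68 ppm in the crypt of mouse 2, where mice 1 and 3 had 0.0345 and 0.

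R-spondins were just as scarce, apart from 1 section. *Rspo3*, the best known R-spondin of the crypt niche, had 0.0372, 0.191 and 6.35 ppm in the crypt of mice 1 to 3 and 0.268, 0, 1.38, 4.68 and 0 ppm at the villus tip of mice 1 to 5. Its villus bottom values were 0.216 to 1.52 ppm and its villus center values 0 to 0.822 ppm. *Rspo1* had 0.452, 0.166 and 3.18 ppm in the crypt and 0 to 2.84 ppm at the villus bottom. In the villus center mice 1 to 5 had 169, 0.558, 0, 0 and 3.92 ppm, and at the villus tip 0.324, 0, 0.262, 16.9 and 1.61 ppm. The value of mouse 1 came from 1 of its 2 sections, at 338 ppm, while the other had 0.422 ppm. That section also had high smooth muscle and mesenchymal markers, with *Actg2* at 3415 TPM against 19.2 in the second section, *Tagln* at 2818 against 169 and *Dcn* at 1398 against 16.2. The villus center mean of *Rspo1* was 34.7 ± 75.1 ppm with that section and 0.980 ± 1.66 ppm without it, and for *Wnt5a* it was 9.50 and 6.40 ± 4.28 ppm (SD, n = 5). The part of muscle and fibroblast RNA in the *Rspo1* level was not tested.

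Zonation along the crypt-villus axis was then tested with the mouse as the replicate. Among 13535 genes with a zone mean above 5 ppm were 4 of the 8 ligands, *Wnt4*, *Wnt5a*, *Wnt3* and *Rspo1*, and none of them passed the test between villus tip and crypt or between villus tip and villus bottom. The background was the same, as 0% of all tested genes passed in either comparison (limma, Benjamini-Hochberg adjusted p of 0.05), with 441 and 620 genes at an unadjusted p under 0.05. On the log2(ppm + 1) scale, which understates changes of low genes, *Wnt4* exceeded its crypt value at the tip by 1.04 (95% interval -1.14 to 3.22, limma adjusted p = 0.991). The tip value was the higher in 1 of the 3 mice with both zones, and the two-sided exact permutation test over mice gave p = 0.429. With the mouse as a block the *Wnt4* difference was 0.32 (95% interval -0.99 to 1.62). Against the villus bottom the *Wnt4* difference was 0.60 (95% interval -1.29 to 2.49, exact permutation p = 0.556), higher at the tip in 3 of 5 mice. *Wnt5a* was lower at the tip than in the crypt by 1.69 (difference -1.69, 95% interval -3.53 to 0.15, limma adjusted p = 0.991). It was lower in 2 of 3 mice, and its exact permutation p was 0.0714, where 5 mice against 3 allow only coarse steps of p. With single mice left out the *Wnt5a* difference was -0.99 without mouse 2 and -2.40 without mouse 3 (95% interval -4.66 to -0.14, unadjusted limma p = 0.0384, adjusted p = 1), and that of *Wnt4* was 0.59 without mouse 4 and 1.91 without mouse 2. Against the villus bottom *Wnt5a* differed by -0.38 (95% interval -1.97 to 1.21, exact permutation p = 0.532), and was lower at the tip in 2 of 5 mice. The same 5 mice gave both zones, but the permutation tests took all values as separate animals, which allows a p down to 0.00794 here. Neither these tests nor the limma intervals, except where a block is named, used the pairing of zones within a mouse. Over the other settings, the mouse as a block among them, the tip over bottom difference was 0.59 to 0.68 for *Wnt4* and -0.62 to -0.21 for *Wnt5a*. For *Wnt5a* over the crypt it was -1.99 to -1.09. *Wnt3* and *Rspo1* differed between tip and crypt by 0.02 (95% interval -2.21 to 2.26) and 0.32 (95% interval -2.39 to 3.02). Both values lay well within the spread between mice. *Rspo1* was lower at the tip in 3 of the 3 mice with both zones, and the difference was 0.025 with the mouse as a block, -0.41 without mouse 4 (16.9 ppm at the tip, no crypt sample) and 1.11 without mouse 3.

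**Figure D2:**
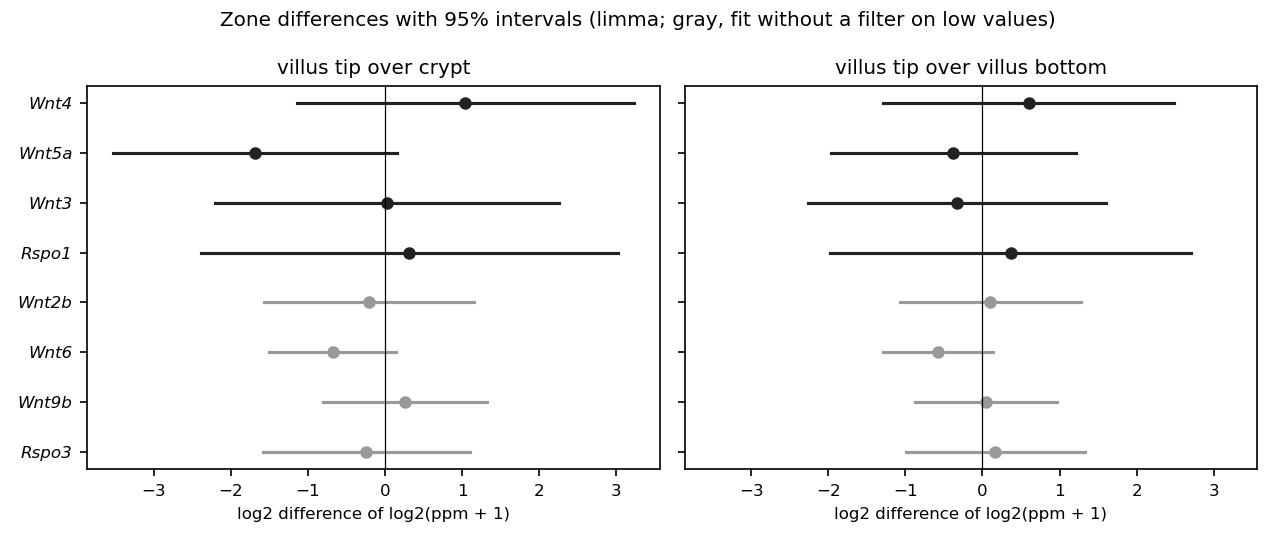
Difference of log2(ppm + 1) on the horizontal axis for 8 ligands, villus tip over crypt (left) and villus tip over villus bottom (right); points are limma estimates and lines 95% intervals, black for ligands above the 5 ppm limit and gray for the fit without that limit. Every interval includes 0, with that of *Wnt5a* against the crypt at -3.53 to 0.15 and those of *Wnt6* at -1.50 to 0.14 (crypt) and -1.29 to 0.13 (villus bottom).

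Over the 18 mouse-by-zone values the tested genes closest in pattern to *Wnt4* were *Chordc1* (Spearman rho 0.98), *Tbk1* (0.97) and *Glipr1* (0.97), among 13534 genes compared. *Wnt5a* was matched best by *Zfp740* (0.81), *Pop7* (0.80) and *Msn* (0.77), *Wnt3* by *Heg1* (0.80), *Fam193b* (0.79) and *Klhdc4* (0.79), and *Rspo1* by the neuronal tubulin gene *Tubb3* (0.92), *Frg2f1* (0.82) and the collagen gene *Col16a1* (0.81). These values describe the 18 points, which share mice and libraries. The other Wnt pathway genes showed no zonation that passed the test. Of 14 further ligands 1 was above 5 ppm, of 16 Wnt receptors 6, of 5 R-spondin receptors and ligases all 5, of 11 beta-catenin targets 9, and 0 of these passed in either comparison. The median difference of tip over crypt was -0.31 for the receptors and 0.30 for the R-spondin receptors and ligases, against 0.04 over all tested genes.

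Of the 8 ligands followed in the sorted single cells, *Wnt5a* was found in the most mesenchymal cells. A UMI of any member was found in 54 of 325 mesenchymal cells (16.6%), and 4 cells held 2 members, 3 of them *Wnt4* with *Wnt5a* and 1 *Wnt2b* with *Rspo2*. *Wnt5a* was detected in 33 mesenchymal cells (10.2%, 95% exact binomial interval 7.09 to 13.96%) with 56 UMIs, and in 5 of 2022 other cells (0.247%, 0.0803 to 0.576%) with 5 UMIs. Per UMI sequenced this is 14.1 per 1e5 in mesenchymal and 0.122 per 1e5 in other cells, 115-fold apart, although mesenchymal cells were shallower (median of 1028 UMIs against 1444.5). With every cell thinned to 400 UMIs the shares were 4.75% and 0.137%. All *Wnt5a* UMIs of mesenchymal cells came from mice B (23 UMIs, 10 of 111 cells) and C (33 UMIs, 23 of 194 cells). Mice A, D and G, with 13, 2 and 5 mesenchymal cells, gave none. The levels of mice B and C were 20.7 and 12.2 per 1e5, against at most 0.348 per 1e5 in the other cells of any of the 8 mice. Intervals here and below cover counting error only.

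*Wnt4* was detected in 7 mesenchymal cells (2.15%, 0.870 to 4.39%) with 10 UMIs and in 6 other cells (0.297%, 0.109 to 0.645%) with 11 UMIs, and all 6 of these were epithelial by their markers. The mesenchymal level per UMI was 9.32-fold that of the other cells, but all 7 cells were from mouse B and 5 of them from gates labelled as doublets. Of the 7 cells, 2 had at least 2 epithelial markers and 6 had *Pdgfra*. Without the doublet gates 2 of 246 mesenchymal cells (0.813%) and 5 of 1418 other cells (0.353%) held *Wnt4*. The part of attached epithelial cells in the mesenchymal *Wnt4* was not tested. The numbers of cells with *Wnt4* and with *Wnt5a* are detections of 3′ tags and do not compare the levels of these genes.

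*Wnt2b* and the R-spondins had 3 to 8 UMIs each in mesenchymal cells and 0 in the other 2022 cells, where 0 counts allow a share of cells with a UMI of up to 0.148% (3 counts; exact 95% upper limit 0.182%). Such a limit concerns detection and not expression. *Wnt2b* was found in 3 mesenchymal cells (0.923%), *Rspo1* in 4 (1.23%, 0.336 to 3.12%), *Rspo2* in 6 (1.85%, 0.680 to 3.97%) and *Rspo3* in 5 (1.54%, 0.501 to 3.55%). Set against a floor of 3 counts over all other cells, the observed mesenchymal level was 23.9-fold the floor for *Rspo1*, 27.3-fold for *Rspo2* and 23.9-fold for *Rspo3*. These ratios are not lower bounds, as the mesenchymal levels rest on 7 or 8 UMIs. Their lower 95% limits were 0.707 per 1e5 for *Rspo1* and *Rspo3* and 0.868 for *Rspo2*, against an upper limit of 0.0904 in other cells. The cells with these UMIs came from few animals. All *Wnt2b* and *Rspo2* cells and 4 of the 5 *Rspo3* cells were from mouse C, and of the *Rspo1* cells 2 were from mouse C, 1 from mouse D and 1 from mouse G. *Wnt3* and *Wnt6* had 0 UMIs in mesenchymal cells, which allows a share with a UMI of up to 0.923% (3 counts; exact 95% upper limit 1.13%), and UMIs in 2 and 3 other cells (0.0989% and 0.148%). These counts are too few to show a difference.

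**Figure D3:**
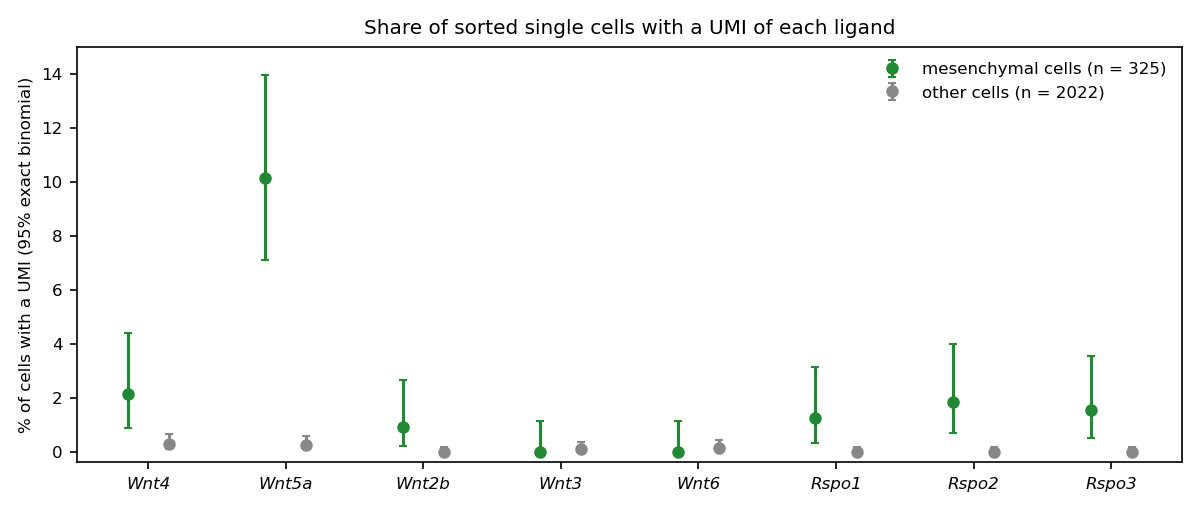
Percentage of cells with at least 1 UMI of each ligand on the vertical axis, for 325 mesenchymal (green) and 2022 other cells (gray); points are shares and bars 95% exact binomial intervals over cells, not over mice. *Wnt5a* reached 10.2% in mesenchymal cells, and *Wnt3* and *Wnt6* were at 0 there.

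Mesenchymal and other cells were then compared over animals. UMIs were summed per mouse and class, with 4 mice in the mesenchymal and 8 in the other class. None of the 8 ligands passed the count filter that left 3856 genes. At least 20 cells per sum left only mice B and C in the mesenchymal class (111 and 194 cells). With the filter *Wnt5a* could then be tested and was called, at 6.46 (SE 0.65, edgeR adjusted p = 7.03e-06). It passed the filter through the sums of these mice (23 and 33 UMIs), the group where it was high, so this call is no separate support. Without the filter, 6 of 8 ligands were called higher in mesenchymal cells (edgeR quasi-likelihood test, adjusted over 19383 genes), namely *Wnt5a*, *Wnt4*, *Wnt2b*, *Rspo1*, *Rspo2* and *Rspo3*, where 10.7% of all genes were called higher. *Wnt5a* differed by 5.67 on the log2 scale (SE 0.71, edgeR adjusted p = 1.32e-13), and *Wnt4* by 2.86 (SE 0.92, edgeR adjusted p = 0.0124). *Wnt3* and *Wnt6* did not pass (adjusted p = 0.650 and 0.582). Classes of the same mouse belong together, and with the mouse as a block *Wnt5a* alone remained called, at 5.78 (SE 1.00, edgeR adjusted p = 3.91e-07), where 5.23% of all genes were called higher. In that fit *Wnt4* had an adjusted p of 0.679, *Wnt2b* 0.604, *Rspo1* 0.237, *Rspo2* 0.242 and *Rspo3* 0.165. *Wnt5a* stayed called without any single mouse (5.44 to 5.95), whereas the *Wnt4* difference turned to -2.59 without mouse B. Without the plate that held most mesenchymal cells 4 ligands were called, and *Rspo3* was lost (adjusted p = 0.0987), while *Wnt2b* had no UMI left.

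Mesenchymal cells were then divided into subclasses by marker genes other than Wnt or R-spondin ligands, and the cells with a ligand UMI were counted in each. By at least 2 markers of 1 list, 104 cells were of the Igfbp6 type (the markers of villus tip telocytes in the study), 77 of the Grem1 type (those of crypt telocytes), 45 of the myofibroblast type and 28 of the Rgs5 type, and 71 were unassigned. All 7 *Wnt4* cells were of the myofibroblast type (15.6% of 45, 95% exact binomial interval 6.49 to 29.5%). Of these 45 cells 28 came from gates labelled as doublets, against 13 of 104 Igfbp6 and 17 of 77 Grem1 type cells. At least 1 epithelial marker was found in 33.3% of the myofibroblast type, 13.5% of the Igfbp6 type and 20.8% of the Grem1 type. Some subclass markers were also common outside the mesenchyme. *Pdlim1* of the myofibroblast list was found in 18.6% of other and 16.6% of mesenchymal cells, and *Cfb* of the Grem1 list in 14.9% and 10.5%. The part of attached epithelial cells in these *Wnt4* counts was not tested. *Wnt5a* was found in 16 Igfbp6 type cells (15.4%, 9.06 to 23.8%), 9 myofibroblast type cells (20%), 2 Rgs5 type cells, 4 unassigned cells and 2 Grem1 type cells (2.60%). The *Wnt5a* level was 44.0 UMIs per 1e5 in the myofibroblast type, 16.0 in the Rgs5 type, 14.2 in the Igfbp6 type and 2.97 in the Grem1 type. *Wnt2b* appeared in 3 Grem1 type cells (3.90%, 0.811 to 10.97%) and *Rspo2* in 5 (6.49%, 2.14 to 14.5%), with 1 further *Rspo2* cell unassigned. *Rspo3* was found in 3 Grem1 type and 2 Igfbp6 type cells, and *Rspo1* in 2 Igfbp6 type and 2 unassigned cells. The subclasses were unevenly spread over animals: 43 of 45 myofibroblast type cells were from mouse B and 83 of 104 Igfbp6 type cells from mouse C. In mouse C *Wnt5a* was found in 15 of 83 Igfbp6 and 2 of 51 Grem1 type cells, and in mouse B in 1 of 18 and 0 of 19. Of the myofibroblast type, 8 of 43 cells of mouse B and 1 of 2 of mouse C held *Wnt5a*. The *Wnt5a* levels given above pool all mice. *Wnt4*, *Wnt2b* and *Rspo2* each came from 1 mouse, so their subclass counts are given within it. In mouse B *Wnt4* was found in 7 of 43 myofibroblast type cells, and in 0 of 18 Igfbp6, 0 of 19 Grem1, 0 of 7 Rgs5 type and 0 of 24 unassigned cells. In mouse C *Rspo2* was found in 5 of 51 and *Wnt2b* in 3 of 51 Grem1 type cells, and both in 0 of 83 Igfbp6 type cells. Whether other mice share this was not tested. Smooth muscle markers were also found in 86.7% of the myofibroblast type cells, which share *Acta2* and *Tagln* with that list.

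**Figure D4:**
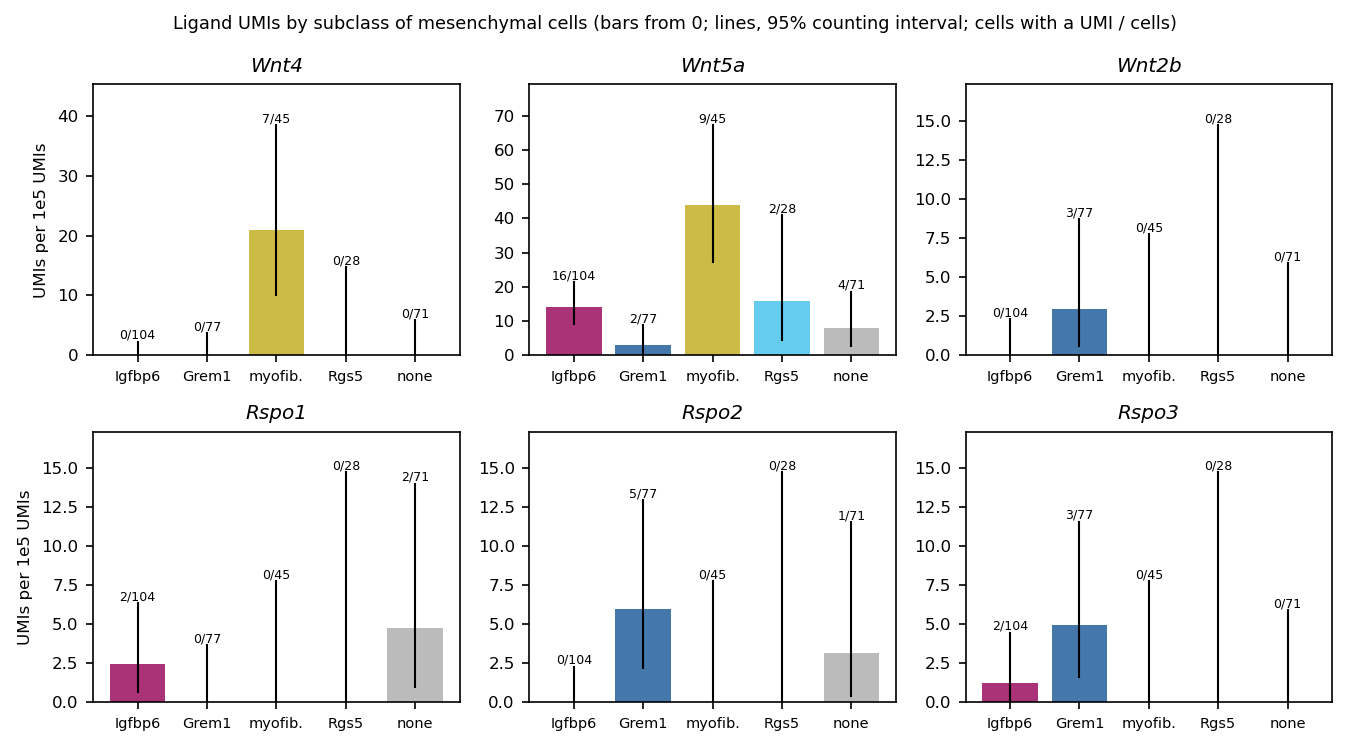
UMIs of 6 ligands per 1e5 UMIs on the vertical axis (each panel has its own scale from 0) in 5 subclasses of mesenchymal cells; bars pool all mice, lines are 95% counting intervals, and the fractions give cells with a UMI over all cells. *Wnt4* was found in 7 of 45 myofibroblast type cells and *Rspo2* in 5 of 77 Grem1 type cells, while *Wnt5a* was spread over all 5 subclasses.

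The difference between Igfbp6 and Grem1 types was tested on sums from 2 and 3 mice. No ligand passed the filter that left 487 genes, and without the filter none of the 5 ligands with UMIs in these classes passed (edgeR, adjusted p = 0.797 for each), with 0.0162% of 12344 genes called. *Wnt5a* was higher in the Igfbp6 type by 2.20 (SE 1.43, unadjusted edgeR p = 0.122) and *Rspo2* lower by 4.28 (log2 difference -4.28, SE 2.16, unadjusted edgeR p = 0.0480). *Wnt2b*, *Rspo1* and *Rspo3* had log2 differences of -3.46, 1.84 and -1.61, with SEs of 2.20, 2.27 and 1.77. Only the direction of the counts can be given at this depth.

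Other genes of the pathway were compared between mesenchymal and other cells in the same unfiltered fit. *Wls*, needed for Wnt export, was detected in 29 mesenchymal cells (8.92%) and 13 other cells (0.643%). In that fit 10.7% of all genes were called higher. Of the 14 further ligands 5 could be tested and 4 were called higher in mesenchymal cells, namely *Wnt5b* (8 cells against 0), *Wnt11* (5 against 1), *Wnt2* (2 against 0) and *Wnt9a* (2 against 0). Among 14 Wnt receptors tested, 7 were called higher and 1 lower. The receptor *Fzd1* led, with 39 mesenchymal cells (12%) against 1 other cell, and the Wnt5a receptors *Ror1* and *Ror2* were found in 7 and 9 mesenchymal cells against 0 and 2. *Fzd5*, a Frizzled known from the crypt epithelium, was lower, with 0 mesenchymal and 135 other cells (6.68%), as was the ubiquitin ligase gene *Rnf43*, with 0 and 29 cells. *Nkd1* and *Ephb3* were called higher among 10 beta-catenin targets. With the mouse as a block, where 5.23% of all genes were called higher, the calls of *Wls*, *Fzd1*, *Fzd2*, *Lrp6* and *Fzd5* held. Those of the further ligands, *Fzd4*, *Fzd8*, *Ror1*, *Ror2*, *Rnf43*, *Nkd1* and *Ephb3* did not.

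In the epithelium itself the ligands were close to the limit of detection. Samples held 748458 to 4210158 UMIs, and the 9 members together are given by their UMIs in mock mice 1 to 4 and in DT mice 1 to 4. *Wnt3* had 1, 1, 16 and 11 UMIs in mock and 2, 4, 5 and 5 in DT mice. *Wnt4* had 1, 4, 4 and 6 in mock and 8, 4, 8 and 3 in DT mice, and *Wnt6* had 4, 0, 5 and 8 against 0, 1, 5 and 0. All 3 were found in both groups, and their groups overlapped. *Wnt9b* had 2, 0, 2 and 1 UMIs in mock and 1, 3, 2 and 0 in DT mice, and *Wnt5a* had 0, 1, 1 and 3 against 0, 1, 0 and 2. *Rspo1* totalled 3 and 1 UMIs and *Rspo3* 1 and 1, while *Wnt2b* and *Rspo2* had 0 in all 8 samples. In the deepest sample a count of 0 allows up to 0.713 UMIs per 1e6. Scaled to depth, *Wnt3* averaged 2.20 ± 1.43 UMIs per 1e6 in mock and 1.79 ± 0.372 in DT epithelium, *Wnt4* 2.15 ± 2.16 and 3.03 ± 2.50, and *Wnt6* 1.53 ± 1.21 and 0.453 ± 0.626 (SD, n = 4 each).

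**Figure D5:**
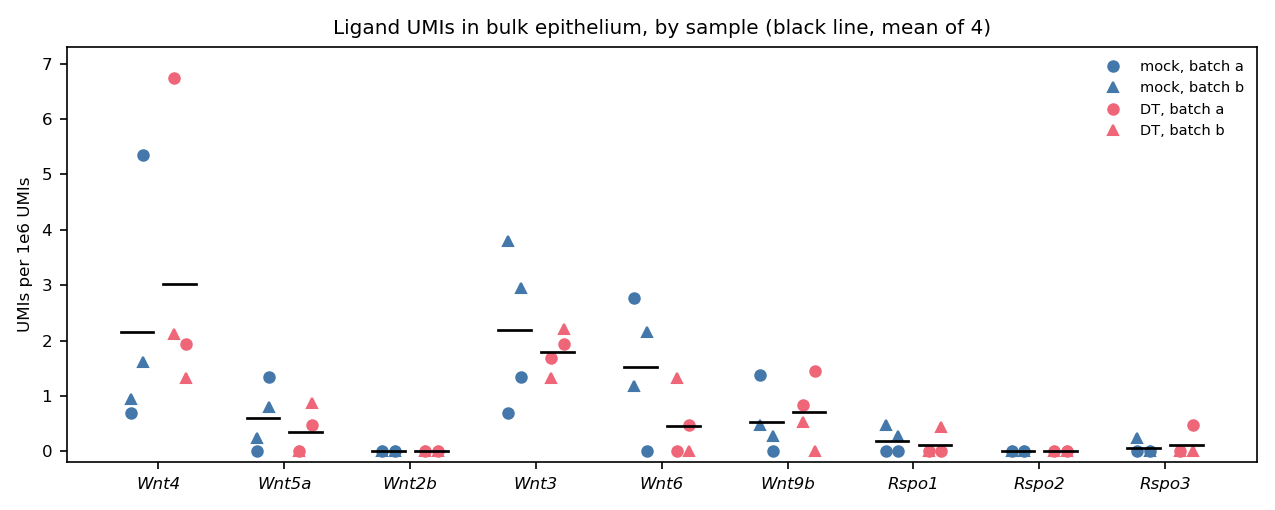
UMIs of each ligand per 1e6 UMIs of the sample on the vertical axis in 4 mock (blue) and 4 DT (red) epithelia, with circles and triangles for batches a and b and a black line for the mean of 4. The highest value is *Wnt4* at 6.74 in 1 DT mouse, and *Wnt2b* and *Rspo2* are at 0 in all samples.

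None of the 9 ligands passed the filter of the DT comparison, in which 32 of 8986 genes (0.356%) were called (edgeR with batch as a term). Without the filter 7 could be tested and none was called, where 4.1% of all genes were. The largest difference was that of *Wnt6*, lower in DT by 1.41 (log2 difference -1.41, SE 0.91, edgeR adjusted p = 0.520), and *Wnt4* and *Wnt3* differed by 0.53 (SE 0.65, edgeR adjusted p = 0.782) and -0.48 (SE 0.64, edgeR adjusted p = 0.797). A change in these ligands was not detectable at this depth. Of the receptors on which R-spondins act, *Lgr5* differed by -0.75 (SE 0.32, edgeR adjusted p = 0.258) and *Rnf43* by -0.49 (SE 0.23, edgeR adjusted p = 0.288), neither of them called. The beta-catenin target *Ascl2*, a stem cell transcription factor, differed by 1.06 (SE 0.49, edgeR adjusted p = 0.299) and was called without the filter (adjusted p = 0.00181).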

How the data were processed

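The authors deposited gene-level TPM for the LCM sections, made by pseudoalignment to coding transcripts of GRCm38, and raw UMI counts per gene for the sorted cells and the bulk epithelium, made with zUMIs on GRCm38. Per the labels bcl2fastq 2.15.0.4 was used upstream. LCM sections were cleared of enterocyte genes (420 genes that are neither ribosomal nor mitochondrial, from the 487 that make up 50% of control epithelial UMIs; 378 rows, 4.97 to 44.7% of the TPM), divided by the sum of genes under 1% each, averaged per mouse and tested with limma 3.58.1 on log2(ppm + 1) over genes with a zone mean above 5 ppm. The single-cell table held 12698 wells. A plate with 352 of these matched no sample label and was not used. Cells were wells holding 400 to 8000 UMIs on 250 or more genes, doublets were not called, since some gates were set for cell pairs, and sums of at least 5 cells per mouse and class were tested with edgeR 4.0.16 (TMM, quasi-likelihood). The deposited epithelial counts were tested with edgeR, keeping genes above 1e-05 of the UMIs in at least 2 samples, with the 2 batches given in the study's supplement as a term. All p-values across genes are Benjamini-Hochberg adjusted over all genes tested. Single LCM values were also compared by exact permutation over mice, without pairing the zones of a mouse. DESeq2 1.42.0 was an alternative. The fits were tested on simulated data. In the main fits of the UMI data no member passed the count filter, so the text mostly gives the unfiltered fits, which had been listed as alternatives.

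All 9 members are named. Other Wnt pathway genes are named where called, up to 8 per comparison by smallest p, or as list members with a value, and genes of like pattern are the 3 of highest rho. The members and lists were chosen with earlier results of these data known. Gene positions are from GENCODE, and probe sequences are those designed by the study. Zones of the same mouse come from the same animal. Their deviations from the zone means correlated with a median r of 0.18 (-0.07 to 0.47, 24 pairs), against -0.05 between mice. Same-numbered epithelial samples correlated at 0.41 to 0.66, and as those numbers also follow the batches, samples of the same batch correlated at 0.28 to 0.69. Both were taken to pair the samples, and since the main fits hold no block, fits with the mouse or the number as a block were run beside them. For the epithelium the labels do not describe how numbers were given.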

Additional observations from a re-analysis of the deposited data

Results flagged for a closer look

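In 19 of 46 groups of 4 to 8 mice or samples, 1 value lay far outside the others of its group by the Dixon ratio, which chance does in about 1 of 20 groups. Groups in which most values are 0 give such ratios from a single positive sample, and many of these were of that kind. No cause was weighed for any of them.

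In the captured stroma *Rspo1* was 169 ppm in the villus center of mouse 1 (group median 0.558) and 16.9 ppm at the villus tip of mouse 4 (median 0.324). *Wnt3* was 27.7 ppm in the villus center of mouse 3 (median 0) and 12.6 ppm at the villus bottom of mouse 5 (median 0.761). The remaining stromal values were small. *Wnt2b* was 1.37 ppm in the villus center of mouse 5, *Wnt9b* 2.56 ppm at the villus bottom of mouse 4 and 2.03 ppm in the villus center of mouse 2, and *Rspo3* 1.52 ppm at the villus bottom of mouse 4.

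Among mesenchymal cells *Wnt4* stood at 9.02 UMIs per 1e5 in mouse B, *Wnt2b* at 1.11 and *Rspo2* at 2.97 in mouse C, with 0 in the other mice tested. *Rspo1* was 50.2 per 1e5 in mouse G, which is 2 UMIs in 1 of 5 cells. Among other cells *Wnt4* was 0.884 per 1e5 in mouse C, and *Wnt3* and *Wnt6* were each 0.47 per 1e5 in mouse E, 1 UMI each. In the epithelium *Wnt4* was 6.74 UMIs per 1e6 in DT mouse 1, on 8 UMIs, and *Rspo1* was 0.440 in DT mouse 4. *Rspo3* was 0.238 in mock mouse 3 and 0.483 in DT mouse 2, on 1 UMI each.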

How the results depend on the processing

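No ligand that could be tested was called in the LCM alternatives, or for Igfbp6 against Grem1 type (5 ligands without the filter, *Wnt5a* also without mouse B at 1.97) and DT against mock (7 without the filter), where the other alternatives tested no ligand. Over all genes the LCM calls went from 0 to 2 without the filter (tip over crypt) and 7 with each section as a sample (tip over bottom). The *Wnt3* difference of tip over crypt reversed to -0.041 with 5 ppm added, -0.20 with each section as a sample, and -0.61 and -0.18 without mice 2 and 5 (-0.61 to 0.75 over mice left out), and that of *Rspo1* to -0.16 with each section as a sample and -0.41 without mouse 4 (-0.41 to 1.11). Over the villus bottom *Wnt3* reversed to 0.062 without mouse 5 (-0.79 to 0.062) and *Rspo1* to -0.26 without mouse 4 (-0.26 to 0.69). The cause was not tested. Between mesenchymal and other cells the count of called ligands was 0 with the filter, 6 without it and 1 without it with the mouse as a block. It was 1 with at least 20 cells per sum (*Wnt5a*, on mesenchymal sums of mice B and C only) and 4 without the filter and the largest plate. With each mouse left out it was 0 with the filter, where no ligand was tested, and 3 to 6 without it. All genes called numbered 1793, 4218, 2801 with the block, 3656 without that plate and 300 with cells of at least 1 marker, and with each mouse left out 1210 to 2176 with and 2441 to 4429 without the filter. *Wnt4* reversed to -2.59 without mouse B (-2.59 to 4.85 over mice left out, without the filter). Igfbp6 against Grem1 type called 36 genes, 2 without the filter, 12 without doublet gates, 14 without that plate and 2 to 23 with each mouse left out. DT against mock called 32 genes, 143 with DESeq2, 635 without the filter, 1 without the batch term, 3 with the replicate number as a block and 3 to 42 with each sample left out. The fits without filter and with the block, without the plate and with a mouse left out, and the means without 1 section, were chosen after seeing the data. Of the single-cell shares, *Wnt4* was 4.46% and *Wnt2b* 0 and *Rspo2* 0.637% without the largest plate. Low UMI numbers limit every ligand. *Wnt5a* had 56 UMIs in mesenchymal cells, all from mice B and C, but 3 in Grem1 type cells and 8 in the whole epithelium.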
